A study of Mus musculus with 6 samples.

Results

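The genes described here build, attach and remove ISG15, a small ubiquitin-like protein that cells make in response to interferon. They are Isg15, Uba7, Ube2l6, Herc6 and Usp18, chosen by name with earlier results of these data known. All 5 were found among the 14968 protein-coding genes of the table of gene expression. The study profiled polyadenylated RNA of corneal epithelium in male C57BL/6 mice the day after scraping, while the wound was closing. Of 6 libraries, 3 came from age-matched mice that were wounded but not made diabetic (control, "counterpart" in the labels). The other 3 came from mice 16 weeks after streptozotocin (STZ), a toxin that destroys insulin-producing beta cells, given as repeated low-dose injections to young adults (diabetic). Both groups carried the corneal wound, and no unwounded cornea was compared here. Each library pooled epithelium from several mice, and the errors given here are spreads between such pools. The tissue included the limbus as well as the healing central cornea.

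ISG15 is joined to target proteins by a chain of enzymes like that for ubiquitin. Uba7 is the activating enzyme (E1), Ube2l6 the conjugating enzyme (E2) and Herc6 the main ISG15 ligase (E3) of the mouse, where it takes the part that HERC5 plays in human cells. Usp18 is the protease that removes ISG15 from its targets, and it also binds the type I interferon receptor and restrains its signal. All of these genes are classical targets of interferon signalling, which acts through the receptor kinases Jak1 and Tyk2 and transcription factors such as Stat2 and Irf9.

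Values were in FPKM, a read measure scaled to transcript length and library size, which allows levels to be compared between genes per length. The FPKM of a library summed to between 308757 and 331926, the lowest sum being that of diabetic replicate 3, and 14000 to 14116 genes lay above 0. Read depth could not be recovered from these values, so no counting interval is given. The corneal keratin gene Krt12, at 3064 to 3746 FPKM in control and 3746 to 5743 FPKM in diabetic libraries, and the transcription factor gene Pax6, at 9.88 to 15.3 FPKM in all libraries, fitted the labelled tissue. Fold changes below are log2 values of FPKM + 1, diabetic minus control, from limma fitted to 12149 genes, with p-values adjusted over all of them by the Benjamini-Hochberg method.

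Around their RefSeq start sites the members differed in the letters to which interferon-activated factors are known to bind. These letters are shown here since the genes are compared as interferon targets. The interferon-stimulated response element (ISRE) was searched as GAAA, any 2 bases and GAAA again, and the shorter core bound by interferon regulatory factors (IRF) as AANNGAAA, on both strands, in RefSeq windows of GRCm38.p6 from 250 bases before to 50 after the start. Every ISRE match holds an IRF match. An ISRE match was present in 3.49% and an IRF match in 24.2% of 27025 such windows, and 4 of the 5 members had a window. Isg15 had 3 overlapping ISRE matches that began 78, 72 and 66 bases before its start, and 1 further IRF match on the opposite strand, 128 bases before it. Uba7 had no ISRE match and 1 IRF match on the opposite strand, 27 bases before its RefSeq start. That start lies downstream of position 107975505, where the span of Uba7 given below begins, so its stretch lies within this span. Neither the ISRE nor the IRF core was matched in the windows of Ube2l6 and Herc6, which says only that these letters were not there. The stretches of 30 bases below, with matched letters in capitals, are read along the strand of each gene.
Isg15 (minus strand, chr4:156200871-156200900): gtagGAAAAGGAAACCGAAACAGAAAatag
Uba7 (plus strand, chr9:107975529-107975558): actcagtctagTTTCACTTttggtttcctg

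Setting diabetic beside control libraries asks whether the ISG15 genes differ in epithelium that regenerates under type 1 diabetes. The modifier itself rose, the protease and the E3 lay higher in every diabetic library than in any control library, the E1 did so by less, and the E2 varied too widely to be placed. The log2 fold change was above 0 for all 5, against 39% of all genes tested, and their median was 0.66 against -0.04 over all genes. Since the members were chosen with earlier results of these data known, such shares are given for scale and are no test of the set. By adjusted p, 1 of 5 passed 0.05, as higher, against 0.0658% of all genes in either direction and 0.0412% as higher. At an unadjusted p under 0.05, 4 of 5 were higher and none lower, against 4.61% and 6.91% of all genes (11.5% in either direction). For these 4 the groups did not overlap, which held in this direction for 6.68% of all genes. The study called genes at 1.5-fold or more with an unadjusted p under 0.05, computed with ballgown. Here the same thresholds were put on the limma p and the fold change of FPKM + 1, so the calls need not be those of the study. In this way 3 members passed, all higher (Isg15, Usp18 and Herc6), against 2.49% of all genes in either direction and 1.23% as higher. The 302 genes behind the 2.49% became 584 at a pseudocount of 0.1, 497 with values rescaled to TPM and 469 without diabetic replicate 1. The number of members was 3 in each of these. It fell to 2 with library weights and to 2 without control replicate 1. In these 2 fits the log2 fold change of Herc6 was 0.579 and 0.559, below 1.5-fold. Since the tissue was measured in bulk, more cells that express a gene and more RNA per cell cannot be told apart.

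**Figure D1:**
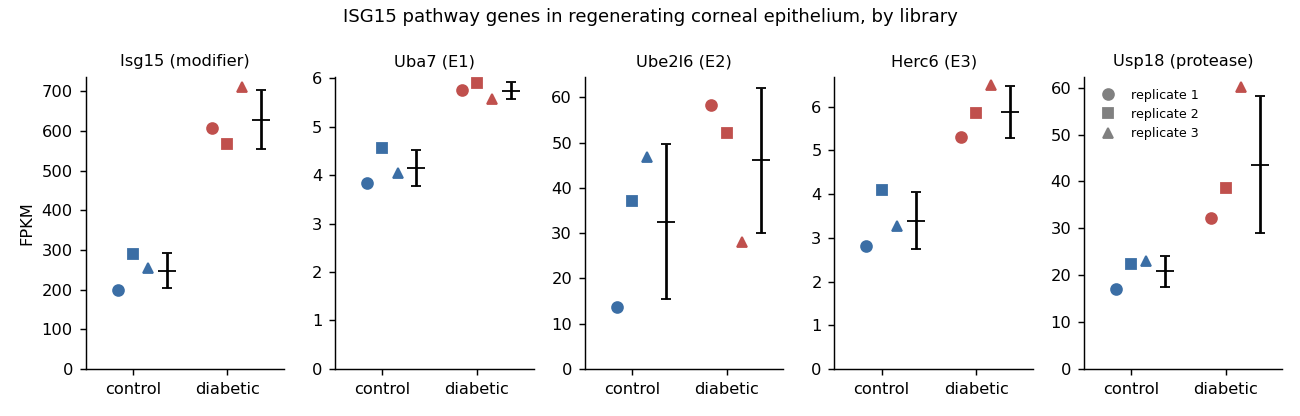
FPKM of each gene on the vertical axis, from 0, with 1 point per library (blue, control; red, diabetic; the shape gives the replicate number) and the mean ± SD of 3 libraries in black beside each group. Isg15, Uba7, Herc6 and Usp18 do not overlap between the groups, whereas Ube2l6 does, with 13.6 FPKM in control replicate 1 and 28.0 FPKM in diabetic replicate 3.

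Isg15 (ENSMUSG00000035692.6) lies on chromosome 4, from 156199424 to 156200818 of GRCm38, as all positions here, on the minus strand. It has 1 annotated transcript with 2 exons, and no other gene of GENCODE M21 overlaps it. It was at 199.6, 289 and 255 FPKM in control replicates 1, 2 and 3 and at 608, 568 and 710 FPKM in diabetic replicates 1, 2 and 3. Even the lowest diabetic library thus lay well above the highest control library. The means were 248 ± 44.9 and 629 ± 73.4 FPKM (SD, n = 3), a log2 fold change of 1.35 (SE 0.15, 95% interval 1.01 to 1.69, adjusted p = 0.0439 in limma), the fifth smallest p of all genes tested. Among all genes of the table Isg15 ranked between 163 and 235 by FPKM in control libraries and between 64 and 77 in diabetic libraries.

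The call of Isg15 depended on which libraries were included and on the fit. It held in 6 of 11 alternative fits and was lost without an expression filter (adjusted p = 0.123), with quantile normalization (0.0656), with median-of-ratios scaling (0.0822), without the variance trend (0.0553) and with a replicate block (0.124), all in limma. Its direction was the same without any 1 library, with log2 fold changes of 1.20 to 1.47, but the adjusted p stayed under 0.05 only without control replicate 2 (0.0477) and without diabetic replicate 1 (0.0372). Leaving out control replicate 1 gave 0.0788 and leaving out control replicate 3 gave 0.0888. With diabetic replicate 2 or 3 removed it was 0.0704 or 0.125.

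Set against the genes of the other small modifiers, Isg15 changed its place. In each control library 4 of 14 genes for ubiquitin and ubiquitin-like proteins had more FPKM than Isg15, among them Fau, Rps27a and Ubb. In diabetic replicates 1 and 3 none had more, and in diabetic replicate 2 only Fau did, at 587 FPKM. Isg15 was at 0.563 to 0.777 times the FPKM of the polyubiquitin gene Ubb in control and at 1.55 to 1.91 times in diabetic libraries, while Ubb itself was at 355 to 393 and at 354 to 392 FPKM. Of the 14 genes none passed an adjusted or an unadjusted p of 0.05 (limma), and the smallest p was that of Rps27a, a ubiquitin and ribosomal protein fusion (log2 fold change -0.20, adjusted p = 0.455). The groups did not overlap for 4 of them, all lower, against 10.9% of all genes in that direction, and the median log2 fold change of the list was -0.05.

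**Figure D2:**
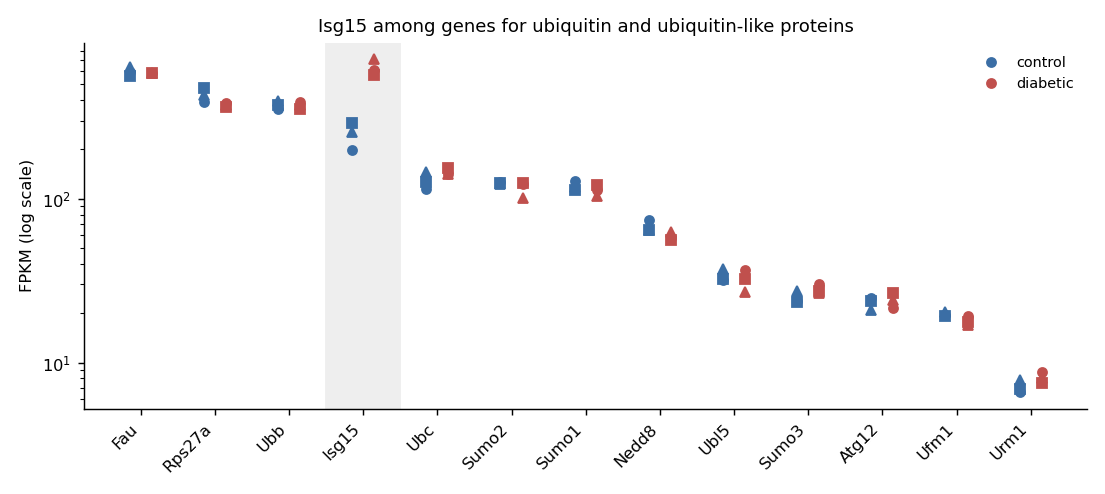
FPKM on a logarithmic axis for Isg15 (grey band) and genes of ubiquitin and ubiquitin-like proteins (1 left out) with a control mean of at least 1 FPKM, ordered by control mean, with 1 point per library (blue, control; red, diabetic). Isg15 lies below Fau, Rps27a and Ubb in the control libraries and at 568 to 710 FPKM in the diabetic libraries, below Fau in replicate 2 and above it in replicates 1 and 3.

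Uba7 (ENSMUSG00000032596.14, chromosome 9, 107975505 to 107984060, plus strand), the E1, was among the lower expressed members and the one that varied least. It was at 3.84, 4.56 and 4.05 FPKM in control replicates 1, 2 and 3 and at 5.76, 5.91 and 5.56 FPKM in diabetic replicates 1, 2 and 3. The groups did not overlap, and the diabetic libraries lay close to each other. The means were 4.15 ± 0.371 and 5.75 ± 0.173 FPKM (SD, n = 3), with a log2 fold change of 0.39 (SE 0.10, 95% interval 0.16 to 0.62). It did not pass the adjustment (adjusted p = 0.236 in limma, unadjusted p = 0.00449) nor the 1.5-fold of the study. Its exons share 233 of 6692 bases with Gm20661 on the same strand, where the reads of both genes cannot be told apart. Of the 9 E1 genes of other modifiers none passed an adjusted or an unadjusted p of 0.05 (limma). Their log2 fold changes lay between -0.08 and 0.02, with 0.02 for Uba1, the E1 of ubiquitin, at 55.4 ± 1.45 and 56.2 ± 3.10 FPKM (SD, n = 3), and -0.08 for Uba3, an E1 subunit of NEDD8, which had the smallest p (adjusted p = 0.784).

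Ube2l6 (ENSMUSG00000027078.14, chromosome 2, 84798828 to 84810335, plus strand), the E2, stood apart from the rest. It was at 13.6, 37.0 and 46.9 FPKM in control replicates 1, 2 and 3 and at 58.2, 52.0 and 28.0 FPKM in diabetic replicates 1, 2 and 3. Diabetic replicate 3, the library with the most Isg15, Usp18 and Herc6, had less Ube2l6 than control replicates 2 and 3. The means were 32.5 ± 17.1 and 46.1 ± 16.0 FPKM (SD, n = 3), with a log2 fold change of 0.59 and an interval of -0.46 to 1.64 that includes 0 (adjusted p = 0.646 in limma). The value without control replicate 1 was 0.08, without control replicate 3 it was 0.93, and without diabetic replicate 1 or 3 it was 0.39 or 0.91. On the log2 scale its SD between control libraries, 0.91, was larger than that of 99.4% of genes tested, and its SD between diabetic libraries, 0.56, larger than that of 96.8%. The annotation holds 4 transcripts for Ube2l6, 2 of them coding, and how the FPKM was divided among them was not analysed here.

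Among the 32 other E2 genes none passed the adjusted threshold. At an unadjusted p under 0.05 (limma) 2 were higher and 1 lower, beside 4.61% and 6.91% of all genes. The E2 genes in question were Ube2v1, a ubiquitin E2 variant (log2 fold change 1.29, adjusted p = 0.289), Cdc34 (0.55, adjusted p = 0.311) and Ube2e3 (-0.83, adjusted p = 0.288). Ube2v1 was at 7.33, 8.93 and 6.79 FPKM in control and at 9.65, 28.7 and 28.6 FPKM in diabetic replicates 1, 2 and 3, so that diabetic replicate 1 lay near the control libraries. Ube2l3, the close relative of Ube2l6 that serves ubiquitin, had a log2 fold change of 0.15 (adjusted p = 0.767), from 12.1 ± 2.71 to 13.4 ± 1.79 FPKM (SD, n = 3). The median log2 fold change of the list was -0.01.

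Herc6 (ENSMUSG00000029798.11, chromosome 6, 57581000 to 57664632, plus strand), the E3, had the lowest FPKM of the members in the control libraries. It was at 2.81, 4.09 and 3.27 FPKM in control replicates 1, 2 and 3 and at 5.31, 5.87 and 6.49 FPKM in diabetic replicates 1, 2 and 3. The groups did not overlap. The means were 3.39 ± 0.651 and 5.89 ± 0.593 FPKM (SD, n = 3), with a log2 fold change of 0.66 (SE 0.13, 95% interval 0.34 to 0.97, adjusted p = 0.154 in limma). Being low, it depended on the pseudocount, with a log2 fold change of 0.79 where 0.1 was added instead of 1. Without control replicate 1, and with 1 added, it was 0.56, which is below 1.5-fold on the scale of FPKM + 1. Its exons share 1269 of 9292 bases with the noncoding gene Gm45193 on the same strand. Of 21 other HERC and HECT ligase genes tested none passed an adjusted or an unadjusted p of 0.05 (limma), with a median of -0.07. Herc3 and Herc4, which belong with Herc6 to the small HERC proteins, gave -0.17 (adjusted p = 0.562) and -0.10 (adjusted p = 0.745) on the log2 scale, and for Herc3 the groups did not overlap, with the diabetic libraries lower.

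Usp18 (ENSMUSG00000030107.10, chromosome 6, 121245906 to 121270917, plus strand), the protease, lay higher in the diabetic libraries than in any control library. It was at 17.0, 22.4 and 23.0 FPKM in control replicates 1, 2 and 3 and at 32.2, 38.5 and 60.1 FPKM in diabetic replicates 1, 2 and 3. Among the diabetic libraries, replicate 3 lay far above the others. The means were 20.8 ± 3.30 and 43.6 ± 14.6 FPKM (SD, n = 3), with a log2 fold change of 1.00 (SE 0.23, 95% interval 0.47 to 1.53, adjusted p = 0.190 in limma). Without diabetic replicate 3 it was 0.75, below the 0.91 of Ube2l6 in the same fit. A noncoding gene on the opposite strand, Gm44148, shares 124 of its 2790 exon bases, and whether quantification used the strand is not given in the sources used here. Of 41 other genes tested that were listed by USP name or family none passed an adjusted or an unadjusted p of 0.05 (limma). Not all of them, such as Usp6nl, need encode an active protease. Their median was -0.01, with log2 fold changes between -0.35 (Usp40, adjusted p = 0.479 in limma) and 0.33.

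**Figure D3:**
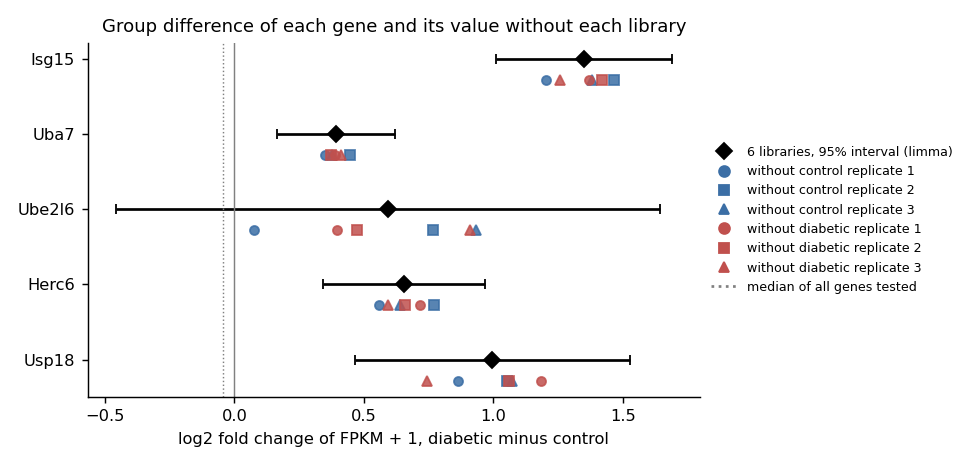
Log2 fold change of FPKM + 1 (diabetic minus control) on the horizontal axis for each gene, as a black diamond with its 95% interval from limma, and below it the value without each library in turn (blue, a control library left out; red, a diabetic library left out; the shape gives the replicate number). The interval of Ube2l6 includes 0 and its value without control replicate 1 is 0.08, while the values of Isg15 stay between 1.20 and 1.47.

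In order of FPKM, Isg15 came first in every library. Ube2l6 and Usp18 followed and did not differ beyond their spread, since Ube2l6 was the lower of the pair in control replicate 1 and diabetic replicate 3 and the higher in the other 4 libraries. Uba7 and Herc6 came last. They also were not separable in the diabetic group, where Herc6 was lower in replicates 1 and 2 and higher in replicate 3, while in the control group Herc6 was lower in each library. Isg15 was at 51.98 to 63.3 times the FPKM of Uba7 in control and at 96.0 to 128 times in diabetic libraries.

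Whether the genes differed between groups to unequal extents was tested on 5 log2 ratios within libraries by exact permutation of the 6 libraries, two-sided, where the smallest possible p is 0.1. The log2 ratio of Isg15 to Uba7 was 5.58 ± 0.181 in control and 6.54 ± 0.202 in diabetic libraries (SD, n = 3; exact p = 0.1, adjusted p = 0.25 over the 5 ratios). That of Isg15 to Herc6 was 5.82 ± 0.095 and 6.51 ± 0.122 (SD, n = 3; exact p = 0.1, adjusted p = 0.25). For both the groups did not overlap, so the modifier lay further above its E1 and its E3 in each diabetic library. The log2 ratio of Isg15 to Usp18 was 3.51 ± 0.108 and 3.86 ± 0.329 (SD, n = 3; exact p = 0.2, adjusted p = 0.25), and here diabetic replicate 3, at 3.54, lay within the control range. Those of Isg15 to Ube2l6 (exact p = 0.3, adjusted p = 0.3) and of Usp18 to the mean of Uba7, Ube2l6 and Herc6 (exact p = 0.2, adjusted p = 0.25) overlapped between the groups too. No ratio can pass 0.05 in this design.

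**Figure D4:**
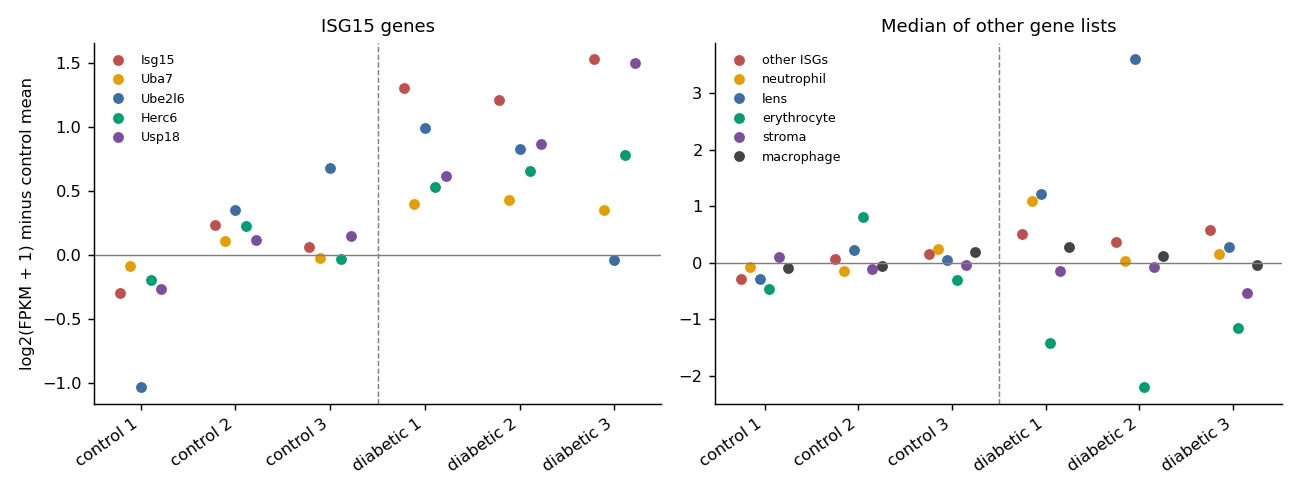
Log2(FPKM + 1) minus the control mean on the vertical axis, by library, for the 5 ISG15 genes (left) and as the median of 6 other gene lists (right), 1 colour per gene or list. Isg15, Uba7, Herc6 and Usp18 lie above the control range in all diabetic libraries, Ube2l6 at -1.03 in control replicate 1 and -0.04 in diabetic replicate 3, and the lens, neutrophil and erythrocyte lists are uneven among the diabetic libraries.

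Control replicate 1 had the lowest value of each of the 5 genes, with Ube2l6 at -1.03, Isg15 at -0.30 and Uba7 at -0.09 from the control mean on the log2 scale. Among 10970 genes with a mean of at least 1 FPKM in 1 or both groups, the 5 with values most like the mean of the members were Xaf1, Ifi211, Zbp1, Rtp4 and Oas3. Likeness was measured over the 6 libraries as the root mean square difference of log2(FPKM + 1) from the control mean, which was 0.10 to 0.14. Zbp1 and Oas3 encode sensors of foreign nucleic acid. Nearest to Isg15 were Ifit3b (0.16) and Trim30d (0.23), nearest to Usp18 Trim30d (0.13) and Apol9b (0.15), and nearest to Herc6 Dhx58 (0.04) and Irf7 (0.10). Uba7 was nearest to Fam216a (0.04) and Shisa5 (0.05). The genes nearest to Ube2l6, Tmem164 and Gatad2b, lay as far from it as 0.32, and both were likewise lowest in control replicate 1. Among the members, Uba7 and Herc6 (0.22) were the most alike, followed by Isg15 and Usp18 (0.32) and Usp18 and Herc6 (0.32), and Ube2l6 was 0.60 to 0.78 from each of the others.

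Beyond the 5 members, 9 genes of ISG15 ligases, of proteases that can also act on ISG15 and of its receptor were tested, and none passed an adjusted or an unadjusted p of 0.05 (limma). Trim25, a ligase and target of ISG15, was at 16.3 ± 1.57 and 19.0 ± 1.43 FPKM (SD, n = 3), with a log2 fold change of 0.21 (adjusted p = 0.513), and Arih1, another ligase, one of 0.01 (adjusted p = 0.988). The smallest p was that of Itgb2, a subunit of the receptor through which leukocytes sense free ISG15 (log2 fold change 0.53, adjusted p = 0.511), which was at 4.24 FPKM in diabetic replicate 1 against 1.78 and 1.53 FPKM in diabetic replicates 2 and 3. Of 17 proteins reported to carry ISG15, none had a gene that passed the adjustment. The genes of 5 were higher at an unadjusted p under 0.05 (limma), beside 4.61% of all genes. Among these were Ifit3 (log2 fold change 1.66, adjusted p = 0.0930), Ifit1 (1.54, adjusted p = 0.187) and Ddx58 (0.34, adjusted p = 0.417), which are interferon targets themselves, and the median of the 17 was 0.04.

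Genes that lead from interferon to these targets were examined next. The ligand genes Ifnb1, Ifnl2 and Ifnl3, the 3 of 21 listed that had values to analyse, summed to 0 to 0.200 FPKM in control and to 0 to 0.0221 FPKM in diabetic libraries. None of them passed the expression filter, so no ligand gene was tested. The sums say nothing of the other ligand genes listed. Of the 6 receptor genes none passed an adjusted or an unadjusted p of 0.05 (limma), the smallest p being that of Ifngr2 (log2 fold change -0.27, adjusted p = 0.556). For the type I receptor the log2 fold change was 0.02 in Ifnar1 (adjusted p = 0.972) and -0.05 in Ifnar2 (adjusted p = 0.913). The receptor kinases Jak1 and Tyk2 had values of -0.11 (adjusted p = 0.722) and 0.00 (adjusted p = 0.998). Of 11 kinase and transcription factor genes tested none passed the adjustment. At an unadjusted p under 0.05 (limma) 3 were higher, beside 4.61% of all genes. Among them were Irf7 (log2 fold change 0.67, adjusted p = 0.193) and Stat2 (0.53, adjusted p = 0.188). Irf7 was at 20.4 ± 3.39 and 32.9 ± 4.94 FPKM and Stat2 at 2.90 ± 0.486 and 4.60 ± 0.313 FPKM (SD, n = 3). Irf9, a partner of Stat2, had a value of 0.07 (adjusted p = 0.897). Of 8 inhibitors of the pathway other than Usp18 none passed an adjusted or an unadjusted p of 0.05 (limma), the smallest p being that of Cish (log2 fold change -0.39, adjusted p = 0.512).

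Interferon-stimulated genes of other families lay higher as well. Of 47 tested, 44 had a log2 fold change above 0, beside 39% of all genes. At an unadjusted p under 0.05 (limma) 33 were higher and none lower, beside 4.61% and 6.91% of all genes. As higher, 2 passed the adjustment, beside 0.0412% of all genes. They were the RNA-binding gene Ifit1bl1 (log2 fold change 1.10, adjusted p = 0.0365) and Trim30a (1.06, adjusted p = 0.0439). The median of the 47 was 0.47 beside 0.66 for the ISG15 genes. The value of Isg15 was exceeded by Ifit3, Ifit1 and Ifit3b (1.37, adjusted p = 0.0760) alone in this list. Since the Ifit genes resemble each other in sequence, their values may hold reads of a neighbour, and this was not tested.

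**Figure D5:**
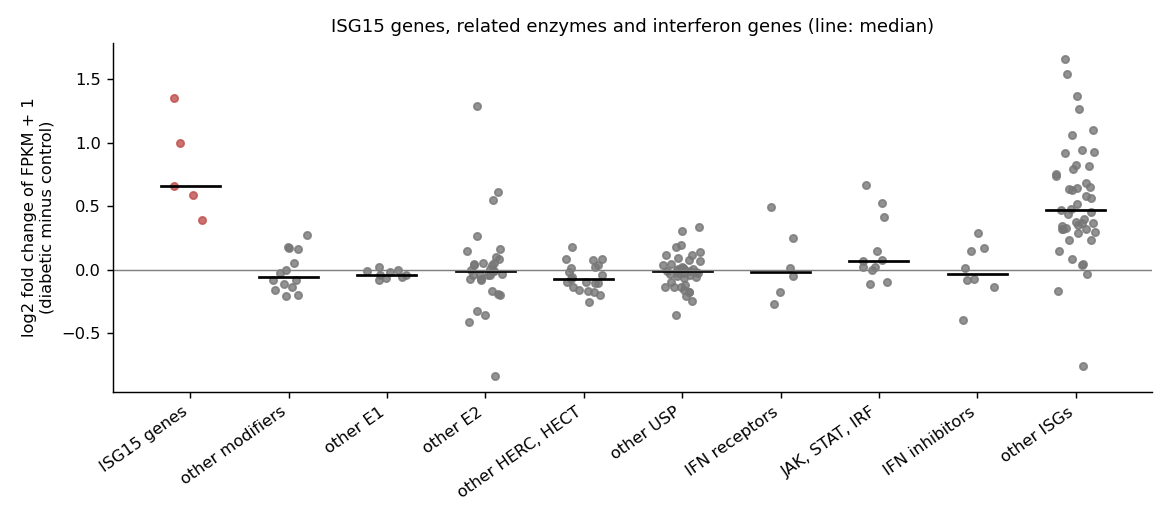
Log2 fold change of FPKM + 1 (diabetic minus control) on the vertical axis for each gene tested, in columns for the ISG15 genes (red) and 9 other lists (grey), with the median as a black line. The medians of the other modifiers, E1, E2, HERC and HECT, and USP genes lie between -0.07 and -0.01, those of the ISG15 genes and of other interferon-stimulated genes (ISGs) at 0.66 and 0.47.

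Markers of other cell types also differed between the groups, and their part in the values of the ISG15 genes was not tested. At an unadjusted p under 0.05 (limma) 4.61% of all genes were higher and 6.91% lower, to be set beside the counts of each list below. Of 12 neutrophil markers tested, 4 were higher at an unadjusted p under 0.05, and they summed to 365 to 688 FPKM in control and 648 to 1063 FPKM in diabetic libraries, the most in diabetic replicate 1. Their median lay 1.10, 0.04 and 0.16 above the control mean in diabetic replicates 1, 2 and 3, and Isg15 lay 1.31, 1.21 and 1.53 above it. The 4 were Stfa2l1 (log2 fold change 2.69, adjusted p = 0.168), Fpr1 (1.79, adjusted p = 0.269), Clec4d (1.20, adjusted p = 0.421) and S100a9 (0.69, adjusted p = 0.346), and S100a9 was the most abundant of them, at 363 ± 116 and 577 ± 132 FPKM (SD, n = 3). Most of the neutrophil sums was S100a9. The receptor genes Csf3r and Cxcr2 of this list had control means of 0.792 and 0.736 FPKM and diabetic means of 1.43 and 1.30 FPKM. Of 5 conjunctiva and goblet cell markers 3 were higher, namely Krt4 (0.82, adjusted p = 0.326), Muc4 (0.38, adjusted p = 0.344) and Krt19 (0.36, adjusted p = 0.306), and Agr2 was lower (-0.70, adjusted p = 0.382). The sums of this list were 1856 to 2177 and 1950 to 2436 FPKM. Its medians were -0.20, 0.26 and -0.02 in control and 0.29, 0.31 and 0.39 in diabetic replicates 1, 2 and 3. Control replicate 1 was thus lowest, as for each of the ISG15 genes. It was also lowest in the medians of other lists, such as lens (-0.277) and T and NK cells (-0.455). By the median of the conjunctiva list the diabetic libraries lay above all control libraries, though its sums overlapped. The same held for the median of the lens list and for the ISG15 genes except Ube2l6. Of 12 lens markers 6 were higher at that threshold, with sums of 40.8 to 47.2 and 61.8 to 347.5 FPKM and medians of 1.21, 3.61 and 0.28 in diabetic replicates 1, 2 and 3. Of 12 monocyte and macrophage markers 3 were higher and 2 lower (98.7 to 123 and 111 to 172 FPKM). Of 5 erythrocyte markers 4 were lower (41.3 to 107 and 9.90 to 22.3 FPKM), and of 11 stromal markers 4 were lower (426 to 460 and 297 to 415 FPKM). Of 5 Langerhans cell markers 1 was lower at that threshold, Cd74 (-0.59, adjusted p = 0.365), with sums of 122 to 186 and 115 to 147 FPKM. Epcam, also listed as a marker of corneal epithelium, made up a large part of these sums, at 69.2 to 82.7 FPKM in all libraries. The log2 fold change was above 0 for 1 of the 5, Epcam (0.03). The T and NK cell list had 3 genes tested, 1 of them higher at that threshold (1.47 to 7.32 and 4.22 to 16.2 FPKM). Of 8 listed markers of dendritic cells 1 could be tested, and it did not pass an unadjusted p of 0.05 (Bst2, itself interferon-induced, 0.32, adjusted p = 0.657). Siglech, which marks plasmacytoid dendritic cells, was at 0 to 0.120 FPKM.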

How the data were processed

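Sample titles gave each library its group and number. The authors deposited FPKM per protein-coding gene. The submitters' processing notes name FastQC, cutadapt, HISAT2 and StringTie and the build GRCm38, with no version of a tool. Gene models for overlaps were those of GENCODE M21. For 21 repeated symbols the most highly expressed gene stood for the symbol. Genes with a mean of at least 0.5 FPKM in 1 or both groups were kept (12149, with 2819 removed), and log2(FPKM + 1) was compared between groups in limma 3.58.1 (R 4.3.3) (two-sided, variances moderated with a trend on the mean level) at an adjusted p of 0.05 over all genes kept. All 5 members passed the filter. The median log2 fold change of all genes was -0.04, so values are relative to nearly no shift. In 386 single-exon genes, the step that best fitted made 62.2% to 80.0% of the low values whole within 2%, too few to recover reads, so no count test was run.

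The members and lists were chosen with earlier results of these data known. Companion genes are named where their unadjusted p was under 0.05, at most 4 of a list, otherwise the 1 with the smallest p, besides close relatives of the members and genes of type I signalling. Ube2v1 and Itgb2 values by library, Krt12, Pax6, Csf3r, Cxcr2, Epcam, Siglech and the modifiers above Isg15 were added after values were seen. Lists overlap (Ifit1, Ifit3, Ddx58 and Epcam stand in 2). Results of some genes that this rule names are not reported here. Gm9706 was not analysed here. The fitting steps were tested on simulated data. Alternatives were other pseudocounts (0.1 and 0.5), filters, scalings, variance models, library weights, a replicate block and leaving out each library.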

Additional observations from a re-analysis of the deposited data

How the results depend on the processing

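All 5 genes kept a log2 fold change above 0 under each of 11 alternative fits and without each of the 6 libraries, and Usp18, Uba7, Herc6 and Ube2l6 passed the adjusted threshold in none of these. Isg15 passed in 6 of the 11 alternative fits and in 2 of 6 with a library left out. It was not called, so that 0 of the 5 genes passed, without an expression filter (log2 fold change 1.35, adjusted p = 0.123, 1 gene passing in all), with quantile normalization (1.38, adjusted p = 0.0656, 5 genes), with median-of-ratios scaling (1.41, adjusted p = 0.0822), in limma without trend (1.35, adjusted p = 0.0553, 3 genes) and with the replicate number as a block (1.35, adjusted p = 0.124, 3 genes). The cause was not tested, except that without a filter 14594 genes were tested. With library weights 129 genes passed, Isg15 among them. By the thresholds of the study, put on the limma p and fold change of the main fit, 302 genes and 3 of the 5 passed. With 1 library left out, 1 (without diabetic replicate 3) to 66 (without diabetic replicate 1) genes passed, 0 to 1 of the 5, and the log2 fold change of Isg15 was 1.20 to 1.47. At a pseudocount of 0.1 the group difference of the log2 ratio of Isg15 to Herc6 was 0.56 instead of 0.69. Same-numbered libraries did not deviate together across genes (correlations of -0.198, 0.056 and -0.086), which does not show whether single genes did. The study describes its screens as made on paired samples and does not say which pools were paired. Here the numbers were not taken as pairs, and the replicate block is given as a check only. Depth per library is unknown, which limits Herc6 and Uba7 most, at under 7 FPKM. The pools, 3 per group, need not show the spread between mice.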
